A study of Mus musculus with 6 samples.

Results

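The stathmins, the collapsin response mediator proteins (CRMPs) and Cyfip2, 10 genes in all, were followed in mouse embryonic fibroblasts with and without the telomere protein Rap1. They are the 4 stathmins Stmn1, Stmn2, Stmn3 and Stmn4, the 5 CRMPs Crmp1, Dpysl2, Dpysl3, Dpysl4 and Dpysl5, and Cyfip2. Every probe whose RefSeq accession in the scanner files belongs to one of these genes was taken, which gave 14 of 41174 probes on the array, with at least 1 probe for each gene. The families were chosen by the signals of some of their genes in knockout and wild-type cells on these same arrays, so the difference between the groups is given for them as a description, without a test.

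Total RNA of 6 fibroblast samples was hybridised to one-colour (Cy3) Agilent arrays, 3 labelled Rap1 knockout and 3 labelled wild type. Cells of both groups expressed SV40 large T antigen, which immortalises cells, had been infected with Cre recombinase and were grown with puromycin. In the knockout, Cre removes exon 3 of Terf2ip, the gene of Rap1, which lies between loxP sites in these mice. Separate embryos or cultures are not named in the labels, so the p-values reflect how far these samples vary, which may be technical variation only. The share of cells in which Cre acted is not given in the labels.

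Stathmins are small phosphoproteins that bind tubulin dimers and promote the disassembly of microtubules, and their phosphorylation releases the tubulin. CRMPs bind tubulin and were described as mediators of the collapse of nerve growth cones in response to semaphorins. Cyfip2 is a subunit of the WAVE regulatory complex, through which the GTPase Rac1 triggers actin branching, and binds the RNA-binding protein FMRP. Stmn1 is made in most dividing cells, while Stmn2, Stmn3, Stmn4 and most CRMPs are best known from neurons.

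Each array had 25373 to 27601 probes (61.6% to 67.0%) with signal well above background, and the number of arrays limits the precision. Signals below are scaled signals, in which the 75th percentile of each array is 1000. A probe entered the fit if it was well above background on every array of at least 1 group, which left 25513 probes. Terf2ip read 4.16, 1.85 and 3.62 on knockout arrays 1, 2 and 3, none well above background, and 297, 318 and 284 on the wild-type arrays. It was 37.8-fold lower in the knockout when the wild-type mean was set against the lowest signals counted as well above background. The fitted log2 difference was −6.63 (SE 0.34, limma adjusted p = 0.00289). Some signals above the lowest counted one are not counted as well above background, so such a fold is only an approximate bound. Where the Terf2ip probe lies relative to exon 3 was not determined here. All 12 listed fibroblast markers were well above background on all 6 arrays. Wild-type arrays 2 and 3 were nearly alike: the SD of their log2 difference over all kept probes was 0.24, against 0.80 to 1.21 for the other pairs of arrays. Differences are therefore also given by slide or against wild-type array 1 alone for the members that turn on it. Slide 1 held array 1 of each genotype and slide 2 the other 4.

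Stmn2, Stmn3, Crmp1 and Cyfip2 lay higher on every knockout array than on every wild-type array, from 5.56-fold for Crmp1 and 7.66-fold for the brighter Cyfip2 probe to 19.2-fold for Stmn2. Stmn3 and the dimmer Cyfip2 probe were not well above background on all wild-type arrays, so their folds are less certain. Stmn1 had a higher knockout mean with overlapping groups, Stmn4 and Dpysl2 differed little between the group means, and Dpysl3 was lower only against wild-type arrays 2 and 3. Of the 14 probes, 11 passed the filter on dim probes. Dpysl4 and Dpysl5 did not, which leaves 8 genes with a probe in the fit.

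**Figure D1:**
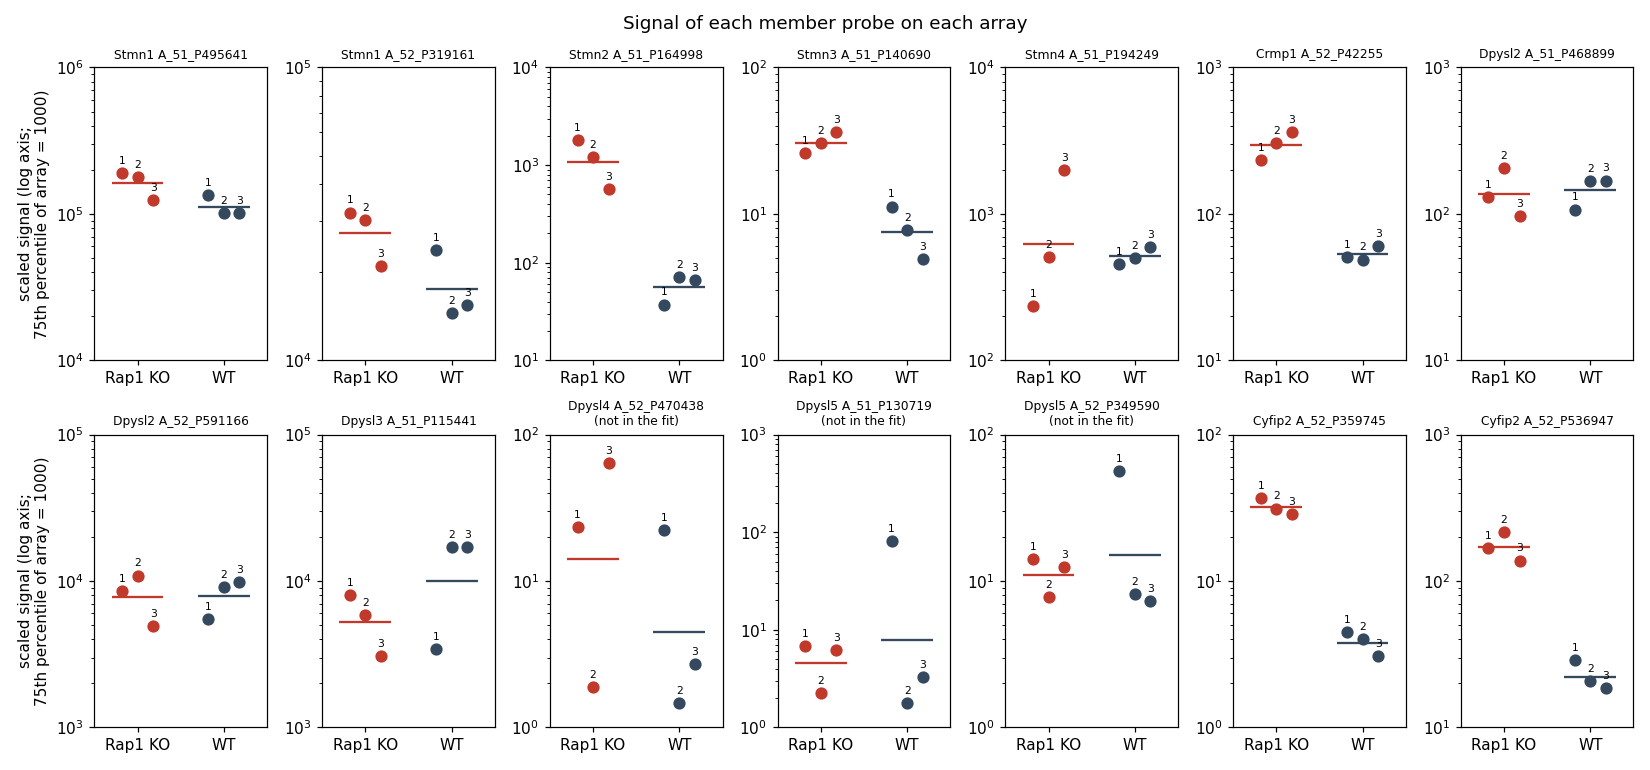
Scaled signal (log axis, 75th percentile of the array set to 1000) of each of the 14 probes on 3 Rap1 knockout arrays (red, left) and 3 wild-type arrays (dark, right), numbered by replicate, with bars at the group means of the log2 values. The knockout arrays lie above all wild-type arrays for Stmn2, Stmn3, Crmp1 and both Cyfip2 probes, and overlap them for the other 9 probes.

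Among the stathmins, Stmn2 (also called SCG10), a membrane-anchored stathmin of growing axons, differed most. Its probe read 1800, 1200 and 571 on knockout arrays 1, 2 and 3, against 37.2, 71.3 and 65.7 on wild-type arrays 1, 2 and 3. The lowest knockout array lay 3.00 log2 units above the highest wild-type array, and all 6 signals were well above background. The log2 difference was 4.26 (SE 0.48), a 19.2-fold higher signal, which ranked 5 among the 25513 kept probes in descending order. It was 5.60 on slide 1 and 3.60 on slide 2, and 4.85 against wild-type array 1 alone.

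Stmn3 (SCLIP), another membrane-bound stathmin of neurons, was dim throughout. It read 26.1, 30.3 and 36.2 on the knockout arrays and 11.2, 7.72 and 4.90 on the wild-type arrays. It was well above background on 3 of 3 knockout arrays and on 1 of 3 wild-type arrays, so the wild-type level is only partly measured. The groups did not overlap, with a log2 difference of 2.02 (SE 0.35), or 4.07-fold. It was 1.22 on slide 1, 2.43 on slide 2 and 1.44 against wild-type array 1 alone. After normexp background correction, which adds an offset to every signal, the difference was 0.45.

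Stmn1, the stathmin of proliferating cells, gave strong signals in both groups. Its probe A_51_P495641 read 191075, 178986 and 123672 on the knockout arrays and 134758, 101763 and 101097 on the wild-type arrays. Knockout array 3 lay below wild-type array 1, so the groups overlapped. The log2 difference was 0.54 (SE 0.27) for this probe and 0.64 (SE 0.30) for A_52_P319161, the other probe of the gene, or 1.45-fold and 1.56-fold. Against wild-type array 1 alone these differences shrank to 0.26 and 0.19. The pair of probes ran together over the 6 arrays (Pearson r = 0.98, given as a description since they read the same RNA).

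Stmn4 (RB3), a stathmin known from brain, was set by single arrays. It read 235, 508 and 1990 on knockout arrays 1, 2 and 3 and 456, 497 and 595 on the wild-type arrays. Knockout array 1 was the lowest of all 6 and knockout array 3 the highest. The log2 difference of 0.27 (SE 0.72) became −0.57 without knockout array 3 and 0.97 without knockout array 1, and was −0.96 on slide 1 and 0.89 on slide 2.

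Among the CRMPs, Crmp1 stood apart from its relatives. Its protein takes part in semaphorin responses of neurons, and the probe read 234, 303 and 360 on the knockout arrays, against 50.8, 48.7 and 59.9 on the wild-type arrays. All 6 signals were well above background, and the lowest knockout array lay 1.96 log2 units above the highest wild-type array. The log2 difference was 2.48 (SE 0.25), or 5.56-fold, with 2.20 on slide 1 and 2.61 on slide 2. It was 1.61 after normexp correction.

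Dpysl2 (CRMP2), the most studied CRMP and a promoter of axon outgrowth, had group means close to each other on both of its probes. A_52_P591166 read 8568, 10880 and 4923 on the knockout arrays and 5475, 9118 and 9790 on the wild-type arrays. The lowest signals were those of knockout array 3 and wild-type array 1. Its log2 difference was −0.03 (SE 0.38), and that of A_51_P468899 was −0.07 (SE 0.35), with signs that turned under array-median scaling to 0.08 and 0.03. These errors leave room for a difference of either sign.

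Dpysl3 (CRMP4), a CRMP that also binds actin, split the wild-type group instead of the genotypes. It read 8027, 5821 and 3078 on the knockout arrays and 3447, 17093 and 17105 on wild-type arrays 1, 2 and 3. Wild-type array 1 lay inside the knockout range, while the near-alike arrays 2 and 3 lay above it. The log2 difference was −0.94 (SE 0.70) over all arrays, 1.22 on slide 1 and −2.01 on slide 2. Against wild-type array 1 alone the knockout mean was 0.60 higher. With wild-type array 1 left out, Dpysl3 was therefore the 1 member probe for which all knockout arrays lay below all wild-type arrays.

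Dpysl4 (CRMP3) and Dpysl5 (CRMP5), both known mainly from the developing nervous system, were near background. Dpysl4 read 23.2, 1.89 and 64.1 on the knockout arrays and 22.3, 1.47 and 2.71 on the wild-type arrays, and was well above background on 2 knockout arrays and 1 wild-type array. The Dpysl5 probe A_52_P349590 read 14.2, 7.72 and 12.4 on the knockout arrays, against 56.6, 8.19 and 7.32 on the wild-type arrays. The other Dpysl5 probe, A_51_P130719, was well above background on 0 of 3 knockout arrays and on wild-type array 1 only, where it read 81.6. Wild-type array 1 was thus the brightest array for both Dpysl5 probes, and no difference between the genotypes can be read at these signals.

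Cyfip2 was higher in the knockout on both of its probes. A_52_P536947 read 168, 215 and 138 on the knockout arrays and 29.0, 20.6 and 18.5 on the wild-type arrays, with all 6 signals well above background. Its log2 difference was 2.94 (SE 0.28), or 7.66-fold, and the lowest knockout array lay 2.25 log2 units above the highest wild-type array. A_52_P359745 read 36.9, 31.2 and 28.8 on the knockout arrays, against 4.45, 4.02 and 3.08 on the wild-type arrays, none of them well above background. Against the lowest signals counted as well above background on the wild-type arrays, this probe was 3.78-fold higher in the knockout, an approximate bound. Its fitted log2 difference was 3.08 (SE 0.24). Slides 1 and 2 gave 2.53 and 3.14 for the brighter probe and 3.05 and 3.09 for the dimmer one, and the pair correlated at 0.99 over the 6 arrays.

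**Figure D2:**
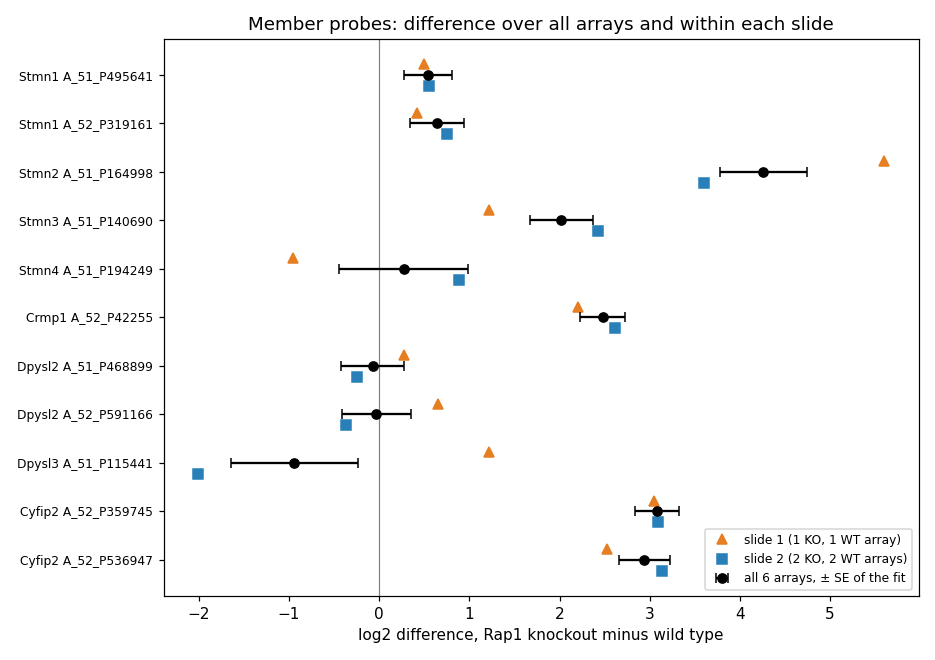
Log2 difference, Rap1 knockout minus wild type, of the 11 probes in the fit: black points with bars are all 6 arrays ± SE, triangles slide 1 (1 array of each genotype) and squares slide 2 (2 of each). Stmn2, Stmn3, Crmp1 and Cyfip2 lie above 1 on both slides, whereas Dpysl3 lies at 1.22 on slide 1 and −2.01 on slide 2.

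In counts, 5 of the 11 probes in the fit had all knockout arrays above all wild-type arrays, and 0 had all of them below. Of these 5, the Stmn3 probe and the dimmer Cyfip2 probe entered the fit only through the knockout arrays, which favours a higher knockout. Over all kept probes, groups that did not overlap were seen for 11.0% with the knockout higher and 5.63% with it lower. The same 5 probes, from 4 genes, were also at least 2-fold higher, against 1.49% of all kept probes, while 0 were separated and at least 2-fold lower, against 2.41%. Because the genes were chosen on this contrast, nothing is read from these shares. Averaging wild-type arrays 2 and 3 left the count of separated probes at 5, and averaging cannot lower it.

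The choice of background correction set the size of the differences of the dim genes but not their side. With normexp correction and quantile normalisation the log2 difference was 3.24 for Stmn2, 1.60 and 0.61 for the Cyfip2 probes A_52_P536947 and A_52_P359745, 1.61 for Crmp1 and 0.45 for Stmn3. All 5 probes still had every knockout array above every wild-type array, and so they had with array-median scaling and in the deposited value table. Stmn1 differed by 0.37 and 0.46 on its probes after normexp correction. The median log2 difference of all kept probes was 0.16 with scaling by the array median and 0.06 with the 75th percentile.

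**Figure D3:**
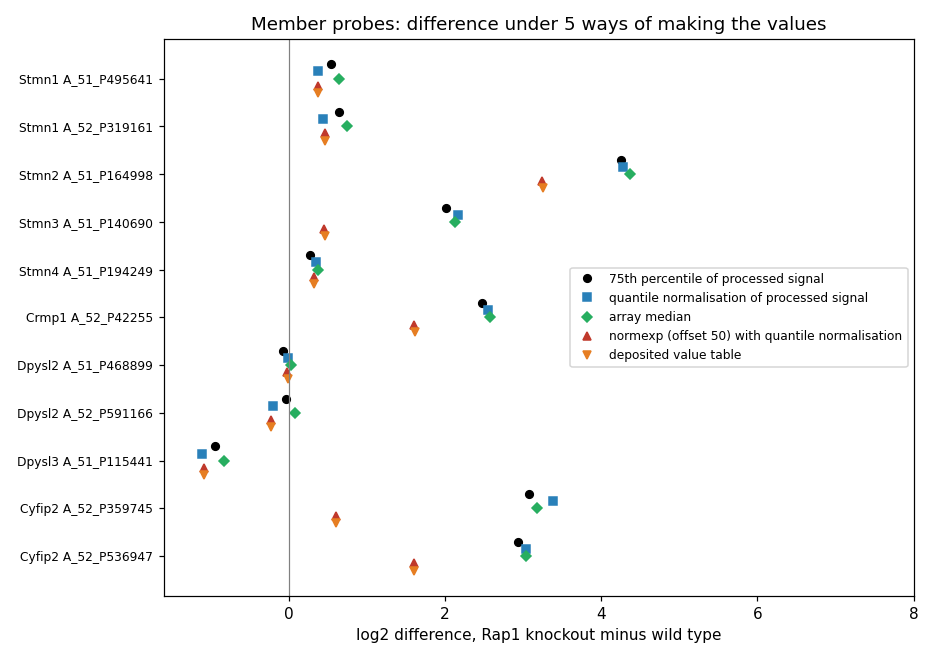
Log2 difference, Rap1 knockout minus wild type, of the 11 probes under 5 ways of making the values. Values from normexp (offset 50) and from the deposited table nearly coincide and lie closest to 0 for the dim probes of Stmn3 (0.45) and Cyfip2 (0.61), while Stmn2 stays above 3 in all 5.

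By likeness of pattern over the 6 arrays, the genes closest to Stmn2 among 11698 named genes were Hagh, a glyoxalase, with a Pearson r of 0.997, Grb2, an adaptor of receptor tyrosine kinases, with 0.993, and Drg2, a GTP-binding protein, with 0.988. Their own log2 differences were much smaller, 0.52 (SE 0.21), 0.59 (SE 0.20) and 0.62 (SE 0.21). Closest to the brighter Cyfip2 probe were Rnf182, a ubiquitin ligase, with an r of 0.995, C1qtnf4 with 0.994 and Hip1r, a clathrin and actin linker, with 0.990. Rnf182 read 139, 192 and 133 on the knockout arrays and 53.3, 36.4 and 34.0 on the wild-type arrays. These correlations describe 6 points, of which wild-type arrays 2 and 3 are nearly alike, and no p is given.

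The promoter windows of RefSeq (GRCm38.p6, 250 bases before to 50 after a start) at hand for these genes were those of Stmn3, Dpysl5 and Cyfip2 and a pair for Crmp1, 5 windows in all. They were searched on both strands for TTAGGG, the vertebrate telomere repeat, and for the left and right motifs of the RE1 element, bound by the repressor Rest, which is known to silence Stmn2 outside neurons. Stmn2 itself had no window among the 5 and was not searched. TTAGGG was in 0 of the 5 windows and in 10.6% of 32851 windows of all genes. The left motif, TTCAGCACC, was in 0 of the 5 and in 0.371% of all windows. The right motif, GGACAGC, was in 1 of the 5, which was 1 of the 2 Crmp1 windows, and in 6.56% of all. The match is shown because Crmp1 is one of the 4 separated genes. It lies on the opposite strand, 131 to 125 bases before the start, and is written on the strand of the gene, with the reverse complement of GGACAGC in capitals.
Crmp1, chr5:37241916-37241945, plus strand: ccgccccggccGCTGTCCccgcctccacgg
A match of 7 letters is a description of the sequence and no sign of binding.

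The genes around these families were taken from lists of their partners, targets and regulators, each gene by its brightest kept probe. Over 173 listed genes in the fit, 0 passed the threshold in either direction with limma, and 21 had an unadjusted p under 0.05. Over all kept probes, 0.00392% passed with the knockout higher and 0.0196% with it lower, and 5.42% and 4.50% had an unadjusted p under 0.05 in these directions. The unadjusted counts, and the SEs given here, come from a fit in which wild-type arrays 2 and 3 each counted in full. When the mean of this pair replaced both, 9 listed genes had an unadjusted p under 0.05 with limma, and still 0 passed. Over all kept probes the unadjusted count went from 2532 to 868. That fit also had fewer arrays. Beside each list's median stands the median of all kept probes, 0.06.

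Of 22 semaphorin partners and effectors of CRMPs, 0 passed the threshold, 14 lay above 0 and 8 below, with a median log2 difference of 0.17, which was −0.05 without knockout array 1. Sema3c, a secreted semaphorin, read 45.2, 18.9 and 58.2 on the knockout arrays and 643, 186 and 185 on the wild-type arrays, without overlap (log2 difference −2.93, SE 0.62, limma adjusted p = 0.329). Fes, a tyrosine kinase that phosphorylates CRMPs, read 634, 856 and 575 on the knockout arrays, against 427, 86.8 and 99.0 on the wild-type arrays (2.14, SE 0.61, limma adjusted p = 0.473). For Fes the difference was 0.57 on slide 1, against 2.92 on slide 2, and it passed the threshold without wild-type array 1. Nrp1, the semaphorin 3A receptor, differed by −0.09 (SE 0.22), and Cfl1, the actin-severing protein cofilin, by 0.26 (SE 0.21).

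Of 29 kinases, phosphatases and binders that act on stathmins and CRMPs, 0 passed, with a median of 0.06. Camk2b, a subunit of a calcium-dependent kinase, differed by −1.05 (SE 0.42, limma adjusted p = 0.503), with 0.17 on slide 1 and −1.66 on slide 2. Prkaca, the catalytic subunit of protein kinase A, differed by 0.44 (SE 0.23). Cdk5 and Gsk3b, the kinases that phosphorylate Dpysl2 in turn, differed by 0.40 (SE 0.28) and −0.31 (SE 0.27), with overlapping groups.

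Of 15 genes of the WAVE regulatory complex and the FMRP family, 0 passed, 7 lay above 0 and 8 below. The median of −0.23 became −0.02 without knockout array 1 and −0.03 on slide 2 alone. Of the 15, 2 were separated with the knockout higher and 1 with it lower, beside 11.0% and 5.63% of all kept probes. Cyfip1, the other Cyfip protein, read 12282, 12972 and 11250 on the knockout arrays and 10620, 16659 and 16490 on the wild-type arrays, a log2 difference of −0.23 (SE 0.26). Wild-type array 1 was the lowest of the 6, and the groups overlapped. Wasf1, a WAVE protein best known from brain, was 0.59 higher (SE 0.24, limma adjusted p = 0.503) without overlap between groups, and Fxr2, a relative of FMRP, 0.44 higher (SE 0.21). Rac1 differed by 0.18 (SE 0.25).

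Of 16 tubulins, 0 passed. The list holds alpha- and beta-tubulins, whose dimers stathmins bind, and also gamma-, delta- and epsilon-tubulins. Of the 16, 13 lay above 0 and 5 were separated with the knockout higher, beside 11.0% of all kept probes. The separation depends on the scaling: the groups of Tuba1a and Tuba3a, which are among the 5, overlapped after quantile normalisation. The list's median was 0.39, or 0.21 after quantile normalisation. Tubg2 and Tubg1, gamma-tubulins of the nucleating complex, differed by 1.05 (SE 0.36, limma adjusted p = 0.495) and 0.72 (SE 0.28). Tuba1c, an alpha-tubulin, differed by 0.27 (SE 0.30). Tubb3, the beta-tubulin used as a neuron marker, read 706, 843 and 589 on the knockout arrays and 1276, 821 and 830 on the wild-type arrays, and so lay on the other side of 0 from Stmn2, at −0.44 (SE 0.28).

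Of 31 microtubule-associated proteins, severing enzymes and motors, 0 passed, 26 lay above 0 and 7 were separated with the knockout higher, beside 11.0% of all kept probes, with a median of 0.36. Mapre3, an end-binding protein, read 861, 664 and 608 on the knockout arrays and 446, 381 and 416 on the wild-type arrays (0.77, SE 0.23, limma adjusted p = 0.485). Kif5a, a neuronal kinesin, differed by 1.37 (SE 0.46), with an overlap through wild-type array 1. Map4, the microtubule-binding protein of most non-neuronal cells, differed by 0.25 (SE 0.23).

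Of 10 repressors and RNA-binding regulators of neuronal genes, 0 passed, with a median of 0.08. Rest read 1820, 2637 and 1938 on the knockout arrays and 2012, 2558 and 2310 on the wild-type arrays, a log2 difference of −0.12 (SE 0.25). Its partner Rcor2 differed by 0.52 (SE 0.31), the RNA-binding protein Elavl1 by 0.32 (SE 0.23) and the splicing repressor Ptbp1 by 0.29 (SE 0.25).

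Of 11 proliferation markers, set beside Stmn1, 0 passed and 5 were separated with the knockout higher, beside 11.0% of all kept probes, with a median of 0.26, or 0.07 after quantile normalisation. Birc5, a mitotic passenger protein, differed by 0.65 (SE 0.25, limma adjusted p = 0.503), Aurka, a mitotic kinase, by 0.60 (SE 0.25) and Pcna, the sliding clamp of replication, by 0.19 (SE 0.21). Their summed scaled signal ran from 262757 to 337237 on the knockout arrays and from 222362 to 238393 on the wild-type arrays. Their part in the Stmn1 values was not tested.

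**Figure D4:**
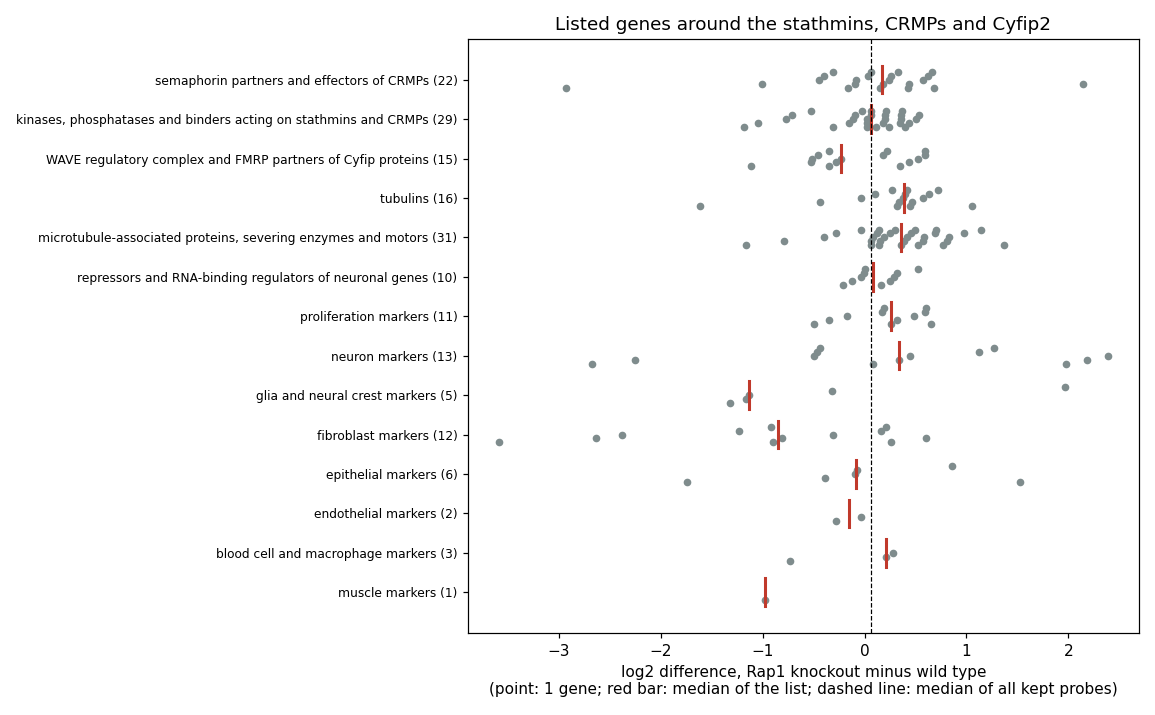
Log2 difference, Rap1 knockout minus wild type, of each listed gene (points), with the list's median (red bar), the number of genes in the fit in brackets and the median of all kept probes, 0.06, as a dashed line. Tubulins (0.39) and microtubule-associated proteins (0.36) have medians above that line, and neuron markers spread from −2.67 to 2.39.

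Markers of other cell types were set beside the members, since fewer cells of a type and less RNA per cell cannot be told apart in such samples. Of 20 neuron markers, 13 were in the fit and 0 passed. Of the 13, 4 were separated with the knockout higher, beside 11.0% of all kept probes, and 9 were well above background on all 6 arrays. Chga, Nefh and Syt1 entered the fit only through the knockout arrays, which favours a higher knockout, and Rbfox3 only through the wild-type arrays. The median was 0.34, and 0.08 over the markers detected on all 6 arrays. Averaging wild-type arrays 2 and 3, or leaving out array 2, gave 0.01, while leaving out wild-type array 1 gave 0.59. Snap25, Nefl, Nefm and Scg2 were not well above background on any array. Chga, a secretory granule protein, read 61.2, 17.7 and 14.9 on the knockout arrays and 9.34, 1.99 and 5.99 on the wild-type arrays (2.39, SE 0.74, limma adjusted p = 0.486), and was well above background on 3 knockout arrays but on only 1 wild-type array, so that this difference is partly set against background. Nefh, a neurofilament, was well above background on 3 knockout arrays and 0 wild-type arrays, and 1.89-fold higher by the approximate bound used for Terf2ip. Uchl1, a ubiquitin hydrolase, differed by 1.27 (SE 0.43). Gap43, a growth-cone protein often named with Stmn2, had the lower mean in the knockout without separating the groups, with 24.8, 263 and 45.0 on the knockout arrays and 44.4, 1219 and 1408 on the wild-type arrays. The list's summed scaled signal ran from 40853 to 66442 on the knockout arrays and from 35462 to 51388 on the wild-type arrays, and its part in the member values was not tested.

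Fibroblast markers, 12 of 12 in the fit with 0 past the threshold, had a median of −0.85, or −0.39 without knockout array 3 and −0.48 on slide 2 alone. Of these, 4 were separated with the knockout lower, beside 5.63% of all kept probes. Pdgfra, a growth factor receptor, read 359, 3969 and 1088 on the knockout arrays and 7585, 5410 and 5279 on the wild-type arrays (−2.38, SE 0.80), and Prrx1, a mesenchymal transcription factor, differed by −0.90 (SE 0.24, limma adjusted p = 0.442). Vim, the filament protein of fibroblasts, differed by 0.21 (SE 0.26). Their summed scaled signal ran from 329822 to 577066 on the knockout arrays, below the 615525 to 672459 of the wild-type arrays. The part of this difference in the values of Stmn2, Stmn3, Crmp1 and Cyfip2 was not tested.

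Of the other marker lists, 0 genes passed. The 5 glia and neural crest markers in the fit had a median of −1.13, or −0.31 without wild-type array 1 and −0.37 with normexp correction. They spread from S100b, a calcium-binding protein of glia, at −1.32 (SE 0.31, limma adjusted p = 0.376) to Ngfr, a neurotrophin receptor, at 1.97 (SE 1.05), with overlapping groups. Ngfr entered the fit only through the knockout arrays, which favours a higher knockout. Mbp, a myelin protein, lay at −1.13 (SE 0.95), and Gfap was not well above background on any array. Among 6 epithelial markers the keratin Krt18 differed by 1.53 (SE 0.48) and its partner Krt8 by −1.74 (SE 0.72), around a median of −0.08 whose sign turned with quantile normalisation. The 2 endothelial markers in the fit were Vwf at −0.28 (SE 0.35) and Kdr at −0.03 (SE 1.00), a median of −0.15 that became 0.40 without knockout array 2 and 0.25 without wild-type array 1, while Pecam1 and Cdh5 were not well above background on any array. The same held for the blood cell markers Ptprc and Itgam and the muscle factors Myod1, Myog and Myf5. Cd14 and Csf1r, of macrophages, differed by −0.73 (SE 0.38) and 0.28 (SE 0.92), in a list of 3 with a median of 0.21 that became −0.45 when knockout array 3 was left out and −0.44 when wild-type array 2 was, and Acta1, the only muscle marker in the fit, by −0.98 (SE 0.66). Csf1r, like Ngfr, entered the fit only through the knockout arrays.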

How the data were processed

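Per the file headers, spot intensities were extracted by Agilent Feature Extraction 10.5.1.1, and the processed signal intensity of each spot was used as deposited. The authors' value table is on the log2 scale. The submitters' processing notes name limma, and no source used here gives the normalisation. The table's log2 values correlated at 0.99999 with normexp-corrected, quantile-normalised scanner signals, but knockout columns 1, 2 and 3 matched scanner files 2, 3 and 1, so replicate numbers here are those of the scanner files.

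Control spots (1639 of 45018) and outlier spots (74 to 120 per array) were left out, and no spot was saturated. The spots of each probe were averaged. The main values were log2 processed signals minus the 75th percentile of each array. Probes (25513 kept) were fitted with limma 3.58.1 in R 4.3.3 (lmFit, eBayes, 2-sided, Benjamini-Hochberg 0.05, no block). SE is that of the fit, and log2 differences are knockout minus wild type. The files hold RefSeq accessions and no gene names, and 23374 of 41174 probes matched a GRCm38.p6 gene table by accession. Probes named by other accessions (17800) could not be searched for members. Slide 1 held array 1 of each group, and slide 2 the rest. Normexp used median signals, since the files list no mean spot signal.

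The members and the lists were chosen with earlier results of these data known. Named genes were all members, Terf2ip, in each list the genes past the threshold or else the 2 of smallest p and the one with the brightest probe, and for 2 members the 3 genes of most similar pattern. Nrp1, Cdk5, Gsk3b, Cyfip1, Tubb3, Rest, Gap43, Ngfr, Syt1 and Rbfox3, and undetected markers, were named after their values were seen. A few genes that the rule names are not reported here. Deviations from the group mean correlated at 0.02, 0.05 and −0.07 between arrays of the same replicate number, which gives no sign of pairing.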

Additional observations from a re-analysis of the deposited data

How the results depend on the processing

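The count of member probes with every knockout array above every wild-type array was 5, stayed at 5 with median scaling, quantile normalisation, normexp, the authors' value table and averaging of wild-type arrays 2 and 3, and ran from 5 to 7 without single arrays. Blocks and the variance model cannot change it, and averaging or leaving out arrays cannot lower it. Over all kept probes, 6 passed the threshold; requiring detection on all 6 arrays left 0 (2238 at an unadjusted p under 0.05 with limma) and drops the probes of Terf2ip and Stmn3 and the dimmer one of Cyfip2, and 337 passed on slide 2 alone, where the near-alike wild-type arrays 2 and 3 are the only wild type. It ran from 3 to 76 without single arrays, with 76 without wild-type array 1, 15 and 11 without knockout arrays 2 and 3, and 3 without knockout array 1. With the replicate number as a block 4 passed, and a pairing by number is not given by the labels. Of the listed genes 0 passed, with 4 on slide 2 alone (Dclk1, Fes, Krt19 and Ngfr) and 0 to 1 without single arrays (Fes without wild-type array 1). Among these genes, Ngfr entered the fit only through the knockout arrays. The differences of Dpysl2 and Stmn4 changed sign when single arrays were left out. Dim probes are limited by background, so Cyfip2 probe A_52_P359745 has only an approximate bound.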
